A study of Mus musculus with 5 samples.

Results

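The actin cortex transcripts described here are the RNAs of 10 genes for the filament mesh under the plasma membrane of a cell. They were chosen by name, as Actb, Actg1, Cfl1, Pfn1, Tmsb4x, Tmsb10, Coro1a, Arpc2, Myh9 and Flna, and each name matched 1 of the 55385 genes in the count tables. Surface-seq was done on EL4 cells, an established mouse T lymphoma line grown in suspension, to ask which nuclear-encoded RNAs sit on the outer face of the cell membrane. Membranes were pulled onto polymer cores to give membrane-coated nanoparticles (MCNPs). In variation A (3 libraries, A1 to A3), RNA was extracted from the particles with phenol-chloroform, its ends were repaired and both adaptors were then ligated, so RNA from either membrane face could enter. In variation B (2 libraries, B1 and B2), the 3′ adaptor was ligated on the intact particles, which favours RNA facing outwards, and the RNA was isolated on silane beads afterwards. All 5 libraries came from the same line with no treatment or genetic change named, and no library of whole cells was analysed here. The membrane face sampled and the other protocol steps differed together between the variations and cannot be told apart. The labels do not say that the replicates came from separate cultures, so the p-values below measure the spread between these libraries, which may be technical.

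The cortex is a thin layer of actin filaments tied to the plasma membrane, and it gives a lymphocyte its stiffness, its shape and its power to crawl and to form contacts. Filaments grow from actin monomers that profilin delivers and thymosins hold in reserve, branch at the Arp2/3 complex, and are cut by cofilin. Myosin pulls on the filaments and filamin ties them to each other and to membrane proteins.

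The sequence of each member bears on how well it could be counted, because the authors' counting skipped any read that could be placed more than once or that touched a second gene. Both actins and both thymosins come from pairs of related genes. The first 60 bases of their coding sequences are shown for that reason (GENCODE M21 transcripts, GRCm38, all on the minus strand, 5′ to 3′), with capitals at the bases that differ within a pair.
Actb: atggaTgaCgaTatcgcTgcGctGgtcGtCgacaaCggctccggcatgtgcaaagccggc
Actg1: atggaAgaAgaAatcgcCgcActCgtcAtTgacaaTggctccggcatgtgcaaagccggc
Tmsb4x: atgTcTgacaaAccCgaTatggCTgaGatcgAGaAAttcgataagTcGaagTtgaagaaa
Tmsb10: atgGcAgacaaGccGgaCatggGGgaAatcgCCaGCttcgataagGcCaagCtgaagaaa
These bases lie at chr5:142905627-142905686 for Actb, chr11:120348032-120348091 for Actg1, chrX:167207977-167208036 for Tmsb4x and chr6:72957953-72958012 for Tmsb10. The actins differ at 9 of the 60 bases and share 88.7% of their 1128 coding bases, and the longest run found in both transcripts was 62 bases. The thymosins differ at 15 of the 60 and share 70.4% of 135 coding bases, with a longest common run of 10 bases. An Actb read and an Actg1 read could thus be alike over 62 bases at most, whereas transcripts of other genes shared more with some members. Of the windows of 50 bases in the main transcript of Actg1, 56.7% also occurred in transcripts of other genes, and its closest copy was the processed pseudogene Gm12715. The read length behind the counts is not known here, so windows of 30 bases were counted too. The share in windows of 50 bases was 43.5% for Tmsb10, with Gm9844 as its closest copy, 23% for Cfl1 and 14.2% for Actb. It was 1.12% for Myh9, 0.216% for Arpc2 and 0% for Pfn1, Tmsb4x, Coro1a and Flna. In windows of 30 bases it was 57.2% for Actg1, 52.6% for Tmsb10, 36.6% for Actb, 28.2% for Cfl1, 8.01% for Arpc2, 1.92% for Myh9, 1.2% for Pfn1 and 0% for Tmsb4x, Coro1a and Flna. The counts of Actg1, Tmsb10, Cfl1 and Actb are therefore uncertain and may be too low, in both variations. Cfl1 overlaps Snx32 on the other strand over 16.5% of its exon bases. The windows were matched on either strand, and 17.8% of those of 30 bases in Cfl1 occurred in Snx32. The shared windows of Cfl1 thus include this overlap and are not all copies elsewhere. Actg1 contains the small RNA genes Gm23419 and Mir6935 within 5.53% of its exon bases, and Coro1a overlaps Bola2 on the other strand over 0.934%. The other members overlap no annotated exon.

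The total count was 1187117 to 4502174 per library in variation A and 21862003 and 22980172 in variation B, and the members took 0.185% to 0.212% of them in variation A and 0.271% to 0.280% in variation B. A count of 3 corresponds to 0.666 to 2.53 CPM (counts scaled to the usual common library total) in variation A and to 0.131 and 0.137 in variation B, so the same transcript was measured less finely in variation A. Library A1 stood apart, with 39.4% of its counts on protein-coding genes against 22.6% in A2 and 22% in A3, and variation B had 63.7% and 64.6%. Ribosomal RNA genes took 51.4% to 54.1% of the counts in variation A and 24.3% and 25.6% in variation B, and the part of this difference in the results was not tested. When scaled to CPM over protein-coding genes alone, the members summed to 5090, 9384 and 8440 in variation A (in the order A1 to A3) and to 4413 and 4207 in variation B. All 7 T lymphocyte markers examined, Cd3e and Lck among them, were counted in every library, at a summed 349 to 613 CPM in variation A and 1770 and 1779 in variation B. Ptprc, among the 7, is shared with other leukocytes. It gave 180, 46.6 and 46.3 CPM in A1 to A3 and 408 and 404 CPM in B1 and B2. The 10 markers of other cell types summed to 0.869 to 3.55 CPM and to 5.03 and 6.01 CPM. Ms4a1 (B cell) and Hbb-bs (erythroid) had no count in any library. The myeloid marker Lyz2 had none in variation A and 73 and 133 counts in B1 and B2, whereas Csf1r had 0, 7 and 2 counts in A1 to A3 and 5 and 0 in B1 and B2, and Itgam had 4 counts in A2 and 20 in B1 alone. The B cell marker Cd79a had 10 counts in B1 and none elsewhere, and each of the other 4 had at most 3 counts in a library. The part of these markers in the results was not tested.

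Variation B was compared with variation A by edgeR's quasi-likelihood test over all genes, with TMM scaling, which sets the bulk of genes to no change. A gene was called where its fold change exceeded 2 and its Benjamini-Hochberg adjusted p was below 0.05. All 10 members passed the filter on low counts, Actg1 through variation A alone since both variation B libraries were under its cutoff of 2.22 CPM: 7 were called lower in variation B, 1 was called higher and 2 were not called. Of the 10287 genes tested, 11% were called higher and 12.4% lower, and of the 9515 protein-coding genes tested, 10.3% were called higher and 12% lower. The median log2 fold change of the members was −1.74, against 0.04 for the protein-coding genes. The scale mattered. On library totals alone, the median over all genes tested, in log2, moved from 0.05 to 1.50, the share of higher calls among all calls went from 47.1% to 94.9%, and the members' median became −0.25. On that scale Actb, Actg1 and Cfl1 were called lower, where 2.94% of all genes were, Myh9 and Flna were called higher, where 55% were, and the fold changes of Pfn1, Coro1a and Arpc2 turned positive. Without A2 or without A3, 5 members were called lower and none higher, and without B1 or without B2 the calls were down to Actg1 alone. Calls over all genes fell in each of these fits too. With every library, 1135 of 10287 genes were called higher and 1276 lower. Without A2 it was 420 and 442 of 12149, and without A3 431 and 466 of 12064. On either scale, 8 of the 10 members lay below the median of the protein-coding genes. A change of scale moves all genes by similar amounts, so this is not a further test.

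**Figure D1:**
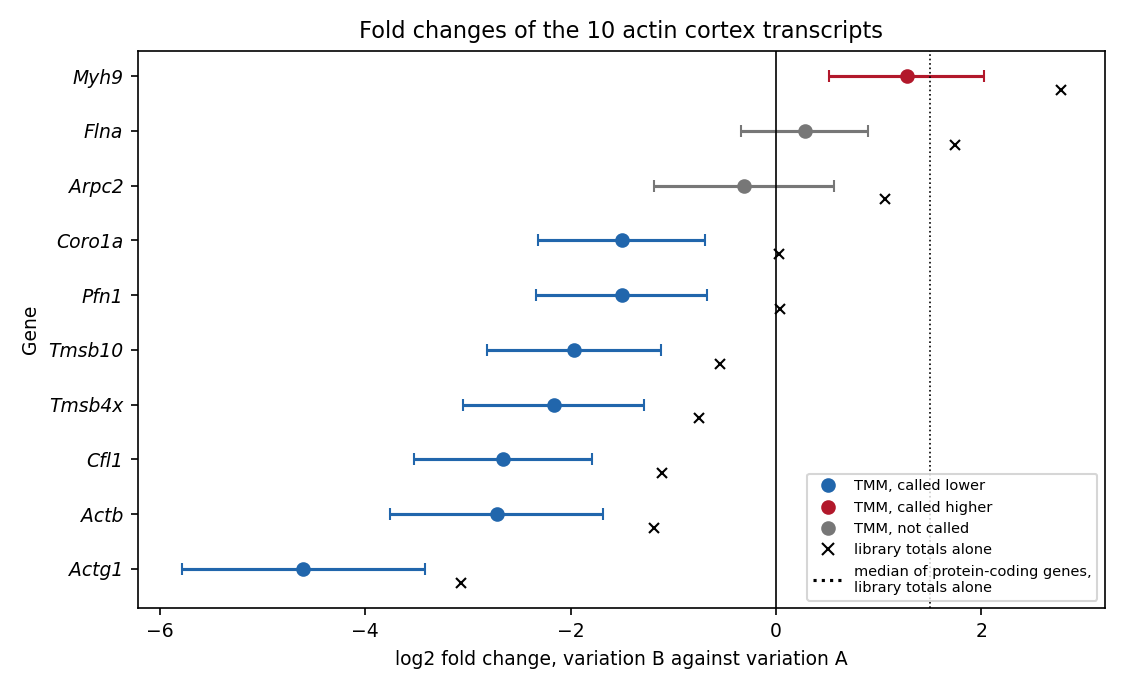
Log2 fold change of each member in variation B against variation A. Points with bars are edgeR estimates with TMM scaling and their 95% intervals, crosses are estimates on library totals alone, and the dotted line is the median of the protein-coding genes on library totals (1.50). With TMM 7 members were called lower and Myh9 was called higher, while the crosses of Pfn1, Coro1a, Arpc2, Flna and Myh9 lie above 0.

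Of the actins themselves, β-actin (Actb) supplied most of the counts. Actb (ENSMUSG00000029580.14, chromosome 5, 142903115 to 142906754) was measured at 1151, 1299 and 1159 CPM in A1 to A3 and at 552 and 505 CPM in B1 and B2. Both variation B libraries lay below all 3 variation A libraries on library totals, as they did with TMM. The log2 fold change with TMM was −2.72 ± 0.45 (SE; 95% interval −3.76 to −1.68; edgeR adjusted p = 0.00687), and it was −1.19 on library totals (edgeR adjusted p = 0.03). With B1 or B2 left out, the fold change stayed between −2.78 and −2.68 but the call was lost (edgeR adjusted p = 0.0992 and 0.127).

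γ-actin (Actg1), the second cytoplasmic actin, had the largest fitted fall of the 10, in a gene that had passed the filter only through the variation in which it was higher. Actg1 (ENSMUSG00000062825.15, chromosome 11, 120345690 to 120348542) had 29, 86 and 11 counts in A1 to A3 and 34 and 41 counts in B1 and B2, although the variation B libraries were several times deeper. These counts correspond to 12.6, 19.1 and 9.27 CPM in variation A and to 1.56 and 1.78 CPM in variation B, with no overlap. The log2 fold change was −4.60 ± 0.52 (SE; 95% interval −5.79 to −3.42; edgeR adjusted p = 0.00146), and it was −3.06 on library totals. Actg1 was the one member called, in the same direction, in all 15 alternative analyses. Since it had passed the filter through variation A alone, a fall was built into its being tested. These calls therefore do not set it above the other members.

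The division of counts between both actins does not depend on scaling between libraries. Actg1 made up 1.08% (95% Wilson interval 0.755 to 1.55), 1.45% (1.17 to 1.79) and 0.793% (0.443 to 1.42) of the counts on both genes in A1 to A3. In B1 and B2 it made up 0.281% (0.201 to 0.392) and 0.352% (0.260 to 0.477), below all 3 libraries of variation A, although the interval of A3 overlaps that of B2. Variation A had a mean share of 1.11% ± 0.329 (SD, n = 3) and variation B one of 0.317% ± 0.0501 (SD, n = 2), a difference of −0.792 percentage points. A two-sided exact permutation test gave p = 0.1, the smallest value that 3 against 2 libraries allow. The intervals cover counting error only, because the reads carry no molecular identifiers and several may stem from 1 molecule.

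**Figure D2:**
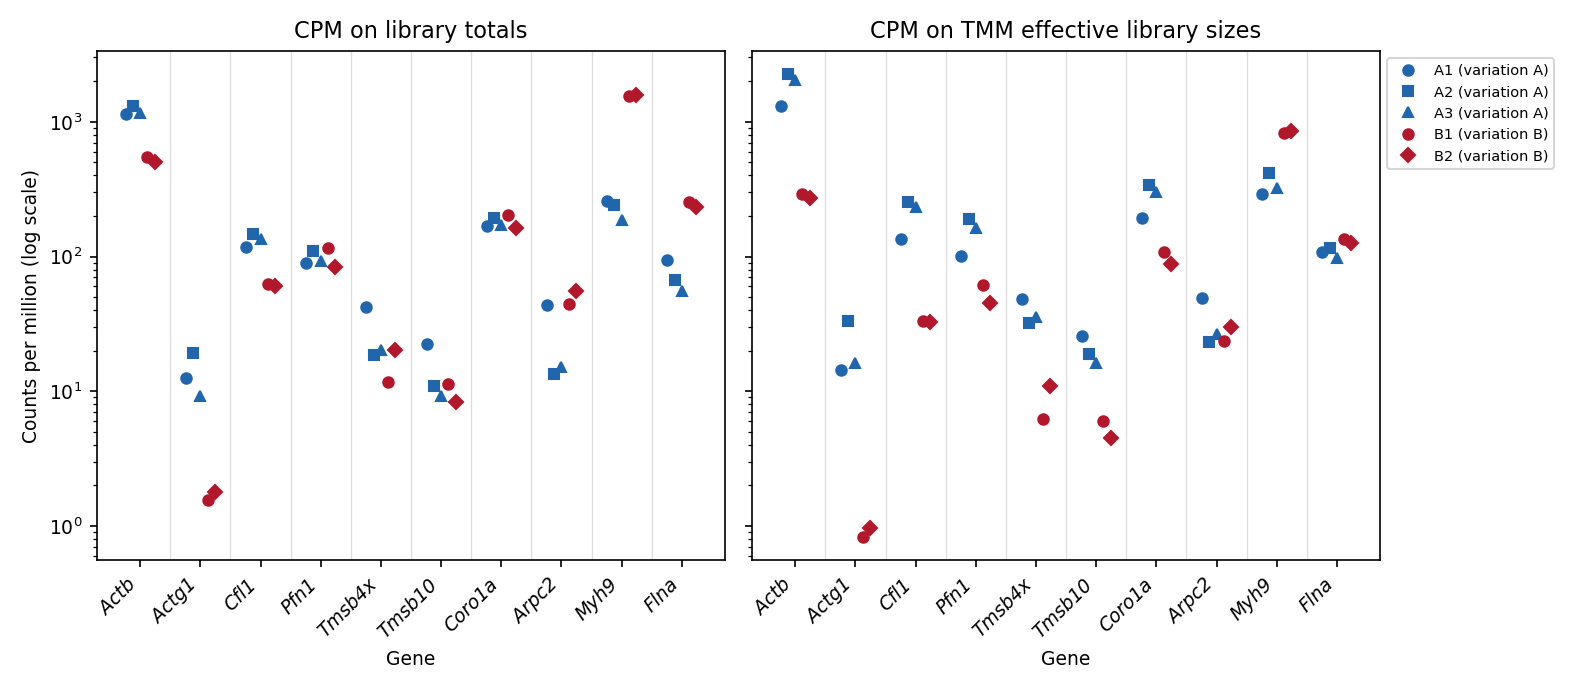
CPM of the 10 members in every library, on library totals (left) and on TMM effective library sizes (right), with a log axis. Blue marks are the 3 libraries of variation A and red marks the 2 of variation B. The red marks lie below the blue ones for 3 members on the left (Actb, Actg1, Cfl1) and for 7 on the right, and above them for Arpc2, Myh9 and Flna on the left and for Myh9 and Flna on the right.

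Cfl1 and Pfn1 encode cofilin 1, which severs old filaments, and profilin 1, which brings monomers to growing ends. Cfl1 (chromosome 19, 5490455 to 5495201) was measured at 118, 146 and 134 CPM in variation A and at 62.8 and 60.01 CPM in variation B. Its log2 fold change was −2.66 ± 0.38 (SE; 95% interval −3.52 to −1.79; edgeR adjusted p = 0.00384), and on library totals it was −1.11 (edgeR adjusted p = 0.0253). Without B1 or B2 its edgeR adjusted p was 0.0549 and 0.0744. Cfl1 followed Actb closely, with a ratio of Cfl1 to Actb CPM per kilobase of exon of 0.0968, 0.106 and 0.109 in A1 to A3 and of 0.107 and 0.112 in B1 and B2. Pfn1 (chromosome 11, 70651850 to 70654644) was measured at 89.1, 109 and 92.7 CPM in variation A and at 116 and 83.1 CPM in variation B, so on library totals the groups overlap. With TMM scaling its 2 variation B libraries lay below all of variation A, at a log2 fold change of −1.50 ± 0.37 (SE; 95% interval −2.34 to −0.67; edgeR adjusted p = 0.0224), while on library totals the value was 0.04 against a protein-coding median of 1.50. Its call was lost when any library other than A1 was left out (edgeR adjusted p = 0.0874 to 0.221). The ratio of Cfl1 to Pfn1 per kilobase was 1.12, 1.13 and 1.22 in variation A and 0.457 and 0.611 in variation B. The ratio was thus lower in both variation B libraries, whichever length is used. Its size depends on the length, because the exons of Pfn1 span 2405 bases and its main transcript 861: per kilobase of main transcript the ratio was 0.485 to 0.529 in variation A and 0.198 and 0.264 in variation B, below 1 in all 5 libraries.

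The β-thymosins Tmsb4x and Tmsb10 encode small peptides that hold actin monomers and keep them out of filaments. Tmsb4x (chromosome X, 167207093 to 167209315) had 98, 83 and 24 counts in A1 to A3 and 258 and 468 in B1 and B2, or 42.6, 18.4 and 20.2 CPM against 11.8 and 20.4 CPM. Its log2 fold change with TMM was −2.16 ± 0.39 (SE; 95% interval −3.05 to −1.28; edgeR adjusted p = 0.00848). Tmsb10 (chromosome 6, 72957347 to 72958748) had 52, 49 and 11 counts and 249 and 192 counts, or 22.6, 10.9 and 9.27 CPM against 11.4 and 8.36 CPM. Its log2 fold change was −1.97 ± 0.37 (SE; 95% interval −2.81 to −1.12; edgeR adjusted p = 0.00983). For both genes the groups overlap on library totals, where the fold changes were −0.75 and −0.54 and neither was called (edgeR adjusted p = 0.217 and 0.341). Without B1 or B2 neither kept its call, at edgeR adjusted p = 0.0555 to 0.134. A1 was the highest library for each of them.

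The share of Tmsb10 in the counts of both thymosins was 34.7%, 37.1% and 31.4% in A1 to A3 and 49.1% and 29.1% in B1 and B2. The variation B libraries lay on either side of variation A, with means of 39.1% ± 14.2 (SD, n = 2) and 34.4% ± 2.86 (SD, n = 3). The difference of 4.70 percentage points gave p = 0.8 in a two-sided exact permutation test, and it was −5.31 without B1 and 14.7 without B2. With 3 against 2 libraries that test cannot give p below 0.1, so it cannot decide whether the thymosin division differed. No direction was shared by both variation B libraries.

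Coro1a, the coronin of blood cells that binds filaments and the Arp2/3 complex, held 8.45% to 9.32% of the member counts in variation A and 7.23% and 6.04% in variation B. Coro1a (chromosome 7, 126699773 to 126707787) was measured at 169, 195 and 173 CPM in variation A and at 203 and 163 CPM in variation B, so the groups overlap on library totals, with a log2 fold change of 0.03. With TMM it was −1.50 ± 0.36 (SE; 95% interval −2.32 to −0.69; edgeR adjusted p = 0.0210), with no overlap. That call was lost when any library other than A1 was left out (edgeR adjusted p = 0.087 to 0.215).

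Arpc2 encodes one of the subunits that hold the Arp2/3 complex together, the machine that starts a new filament on the side of an old one. It was not called. Arpc2 (chromosome 1, 74236084 to 74268209) had 100, 60 and 18 counts in A1 to A3 and 975 and 1279 in B1 and B2, or 43.5, 13.3 and 15.2 CPM against 44.6 and 55.7 CPM. A1 lay far above A2 and A3. The log2 fold change with TMM was −0.31 ± 0.38 (SE; 95% interval −1.19 to 0.56; edgeR adjusted p = 0.567), it was 0.26 without A1 (edgeR adjusted p = 0.429) and 1.06 on library totals, below the median of 1.50 there.

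Myh9, the heavy chain of non-muscle myosin IIA that drives cortical contraction, was the one member called higher in variation B. Myh9 (ENSMUSG00000022443.17, chromosome 15, 77760587 to 77842175) had 593, 1084 and 220 counts in A1 to A3 and 33778 and 36203 in B1 and B2. These are 258, 241 and 185 CPM in variation A and 1545 and 1575 CPM in variation B. The groups stood well apart on both scales, with a log2 fold change of 1.27 ± 0.33 with TMM (SE; 95% interval 0.52 to 2.03; edgeR adjusted p = 0.0279) and of 2.77 on library totals. The call was lost without A2, A3, B1 or B2 (edgeR adjusted p = 0.0731 to 0.211), at log2 fold changes of 1.24 to 1.51. Flna (chromosome X, 74223461 to 74249820), for filamin A, was measured at 94.7, 66.9 and 55.6 CPM in variation A and at 252 and 234 CPM in variation B. Both variation B libraries were above variation A on either scale, but with TMM the log2 fold change was only 0.28 ± 0.27 (SE; 95% interval −0.34 to 0.90; edgeR adjusted p = 0.464), and it was 1.75 on library totals (edgeR adjusted p = 0.00975).

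Counting the members whose groups did not overlap gives the same picture by library. With TMM, both variation B libraries were below all of variation A for 7 members and above for 2, where 26.9% of the protein-coding genes tested were below and 30.8% above. On library totals they were below for Actb, Actg1 and Cfl1 and above for Arpc2, Myh9 and Flna, where 4.47% of the protein-coding genes were below and 76.1% above. Both variations sampled RNA on particles made from EL4 membranes, so the contrast is between protocols and not between cell populations. In these bulk libraries, the number of cells carrying an RNA on the membrane, its amount per cell and the protocol steps cannot be told apart.

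The members' counts were divided differently within the variations. Actb held 57.5%, 61.3% and 62.5% of all member counts in A1 to A3 and 19.7% and 18.7% in B1 and B2. Myh9 held 12.9%, 11.4% and 10.0% and then 55.2% and 58.2%, and Flna held 3% to 4.74% in variation A and 9.02% and 8.65% in variation B. Per kilobase of exon, Actb nevertheless led in every library. In variation A the mean was 449 ± 31.1 CPM per kilobase for Actb (SD, n = 3), followed by Coro1a at 64.2 ± 4.96, Cfl1 at 46.7 ± 4.93 and Pfn1 at 40.3 ± 4.48. Cfl1 and Pfn1 overlap, and the lower places from Tmsb4x (19.8) through Myh9 (17.6), Arpc2 (11.8), Tmsb10 (11.2) and Flna (7.66) to Actg1 (5.14) each overlap the next. In variation B the mean was 197 ± 12.3 for Actb (SD, n = 2), then 121 ± 1.66 for Myh9, 65.8 ± 9.93 for Coro1a and 41.4 ± 9.71 for Pfn1. Flna (25.7), Arpc2 (24.7) and Cfl1 (21.6) followed, each overlapping the next, then Tmsb4x (11.7) and Tmsb10 (7.74), which overlap, and last Actg1 (0.628). The places of Actg1, Tmsb10, Cfl1 and Actb are uncertain, because reads that could also be placed in other genes were not counted. The order depends on the length used: per kilobase of main transcript, an alternative chosen after seeing the data, Pfn1 (113 in variation A and 116 in variation B) had a higher mean than Coro1a (102 and 105), with overlap in both. Myh9 went from sixth to second place with either length. Per kilobase, the ratio of Myh9 to Actb was 0.0464, 0.0384 and 0.0331 in variation A and 0.580 and 0.646 in variation B, a 15.6-fold higher mean. The ratio to Actb was 7.60-fold higher for Flna, 4.69-fold for Arpc2, 2.33-fold for Pfn1 and 2.32-fold for Coro1a, all without overlap. The value for Arpc2 depends on A1, where its ratio was 0.0498, against 0.0135 and 0.0172 in A2 and A3. For Tmsb4x and Tmsb10 the ratios to Actb overlap between the variations. Flna fell behind Myh9, with a ratio of 0.503, 0.380 and 0.410 in variation A and 0.223 and 0.203 in variation B.

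**Figure D3:**
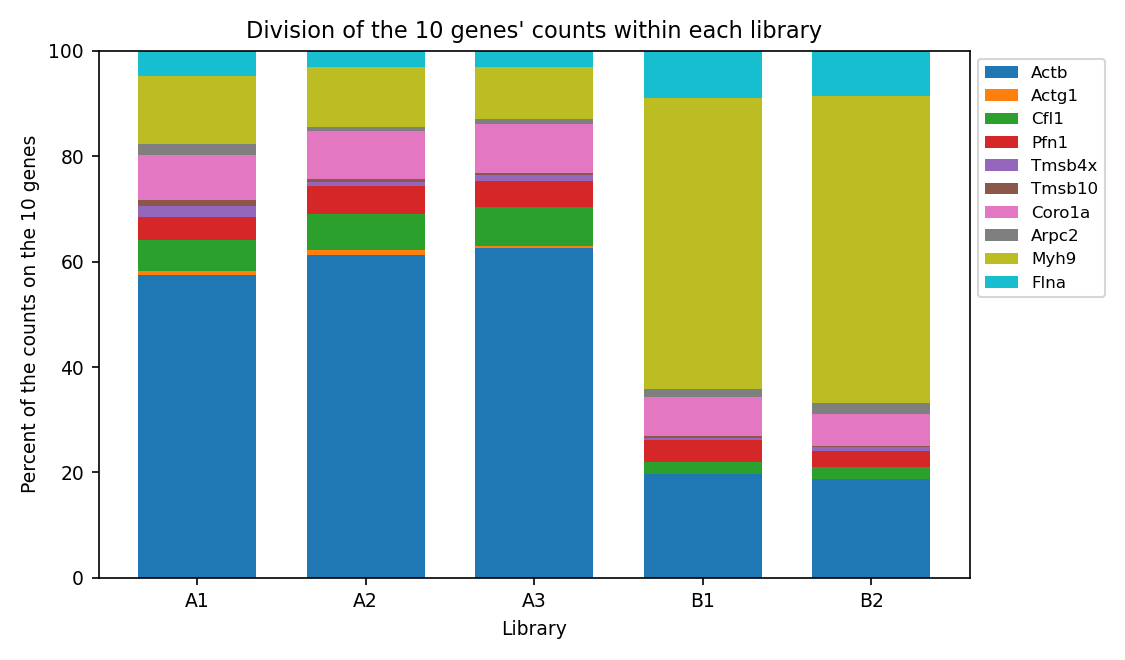
Share of each member in the counts on the 10 genes, in percent, stacked for each library. Actb fills 57.5% to 62.5% of the bars of variation A and 18.7% and 19.7% of those of variation B, and Myh9 fills 55.2% and 58.2% of the latter.

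Myh9 and Flna, the members with a positive log2 fold change on either scale, are the longest, with 12928 and 9457 exon bases. The others have 1276 to 2844, and among these Arpc2, with 2033, was not called lower on either scale. Across the protein-coding genes tested, the median log2 fold change was −0.30 below 2000 exon bases and also from 2000 to 3000, −0.06 from 3000 to 5000, 0.13 from 5000 to 8000 and 0.41 from 8000 upwards. In the longest class 17.4% of genes were called higher and 7.33% lower. Below 2000 bases these shares were 7.18% and 16.3%, and from 2000 to 3000 bases 8.00% and 16.7%. Among the 10 members, the log2 fold change had a Pearson correlation of 0.63 and a Spearman correlation of 0.36 with log2 exon length, and across the 9515 protein-coding genes these were 0.14 and 0.18. Both are descriptions across genes measured in the same libraries, and genes are not independent replicates. When the trend with length was removed before the fit, Myh9 was no longer called (log2 fold change 0.76, edgeR adjusted p = 0.171), Flna stood at −0.06, and the same 7 members were called lower. Within its own length class, 81.9% of genes had a lower log2 fold change than Myh9 and 45.5% a lower one than Flna. In the class from 2000 to 3000 bases, 2.21% of genes had a lower value than Actg1, 4.12% than Actb, 4.34% than Cfl1, 16.7% than Pfn1, 16.8% than Coro1a and 49.2% than Arpc2.

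**Figure D4:**
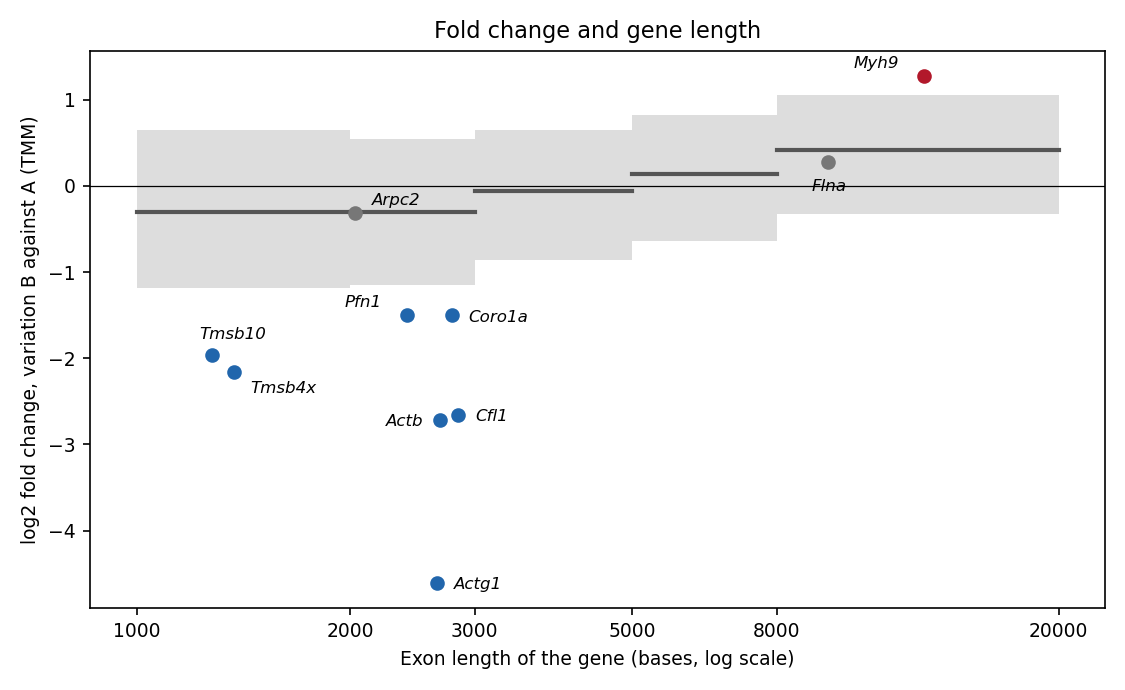
Log2 fold change with TMM scaling against the exon length of the gene in bases (log axis). Grey boxes span the middle quartiles and bars mark the medians of the protein-coding genes tested in 5 length classes, and points are the 10 members in blue (called lower), red (called higher) or grey (not called). The medians go from −0.30 in the shortest class to 0.41 in the longest, and the 7 members called lower lie under the boxes of their classes.

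A wider list of 88 other genes of the actin cytoskeleton was read from the same fit. It was written with earlier results of these data known. Of its 78 genes that passed the filter, 20 were called lower (25.6%, against 12.4% of all genes tested), 5 were called higher (6.41%, against 11%) and 53 were not called, with a median log2 fold change of −0.29 against 0.05 for all genes tested. On library totals these counts became 4 lower (5.13%, against 2.94% of all genes) and 36 higher (46.2%, against 55%). Without A2 there were 6 lower and 2 higher, without A3 8 lower and 2 higher, and without A1 19 lower and 14 higher. They fell as well without B1 or without B2, where a lone variation B library remained. Over all genes, calls also fell whenever A2, A3, B1 or B2 was left out. Without A2, 420 of 12149 genes were called higher and 442 lower, and without A3 431 and 466 of 12064. Without A1, 2526 of 12127 genes were called higher and 1821 lower. The genes nearest to the members by role behaved as follows with TMM. Of the other actins, Acta2, for smooth muscle α-actin, was the one gene tested, at 73.9, 45.8 and 35.4 CPM in variation A and 18.7 and 19.5 CPM in variation B (log2 fold change −2.88, edgeR adjusted p = 0.00131). It was lower on library totals as well. Of the 8 other genes of the Arp2/3 complex, Arpc1b (−1.53), Arpc3 (−1.30) and Arpc1a, the last just past the fold threshold, were called lower and none higher, and 5 were not called, as Arpc2 was not. On library totals none of the 3 was called: Arpc1a and Arpc3 turned positive (0.48 and 0.23), and Arpc1b was at −0.0020 (edgeR adjusted p = 0.996). Of the 3 other coronins, Coro1c (−2.32) and Coro1b (−1.26) were called lower, but neither was called on library totals (−0.82, edgeR adjusted p = 0.0643, and 0.21, edgeR adjusted p = 0.64). Of 12 genes for monomer binding, severing and turnover, 4 were called lower and 1, the cofilin phosphatase gene Ssh2, higher (1.19, edgeR adjusted p = 0.0459), a call that was lost with the trend with gene length removed (0.64, edgeR adjusted p = 0.147). None of 3 tropomyosins was called. Arpc1b overlaps Pdap1 on the other strand over 18.2% of its exon bases and Coro1b overlaps Ptprcap and Rps6kb2 over 13.5%, so their counts are uncertain. With 1 library left out at a time, Acta2 kept its call each time and Coro1c lost it without B2 (edgeR adjusted p = 0.077). Arpc1b, Arpc3, Coro1b and Ssh2 lost theirs without A2, A3, B1 or B2 (edgeR adjusted p = 0.0666 to 0.272), and Arpc1a lost its call without any one of the 5.

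**Figure D5:**
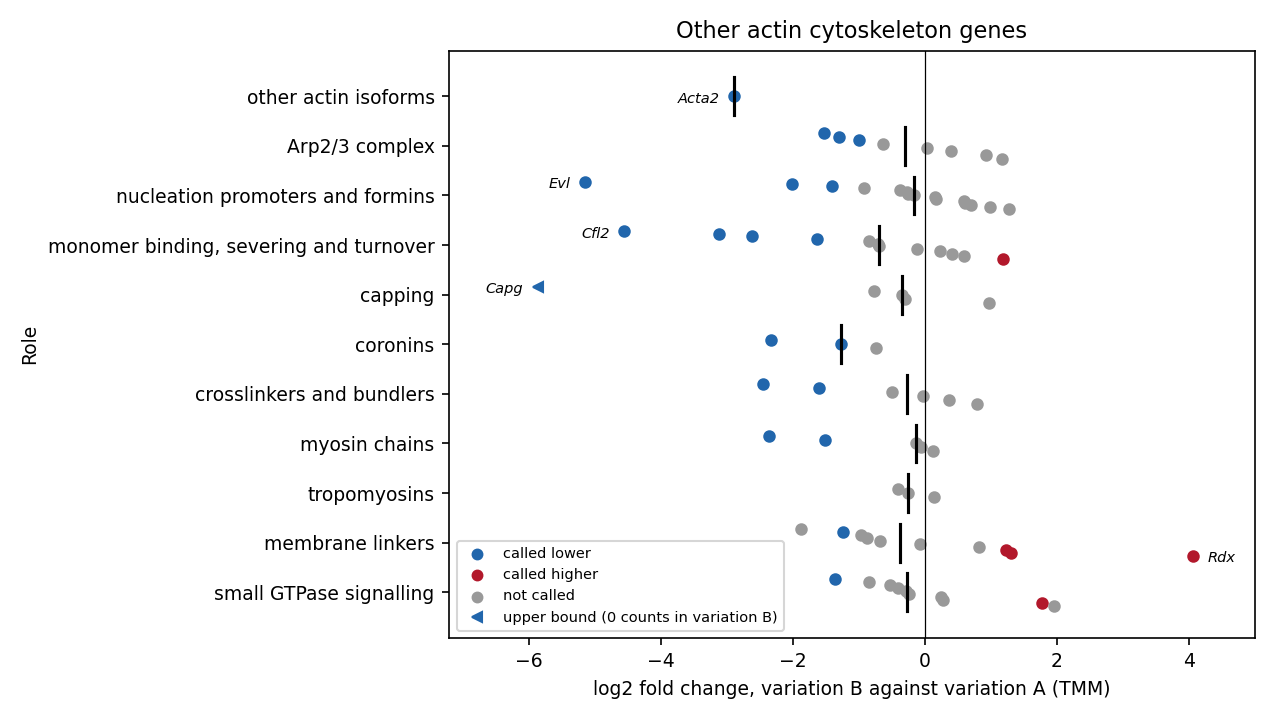
Log2 fold change with TMM scaling of the 78 tested genes of the wider actin list, by role. Each point is a gene, black bars are medians of a role, and the triangle for Capg marks the bound set by 3 counts in each variation B library, since it had none there. Blue points (20, called lower) occur in all roles but the tropomyosins, and 3 of the 5 red ones (called higher) are membrane linkers; on library totals, 4 genes were called lower and 36 higher.

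The genes of the wider list called higher included Rdx, with the largest rise, and Sptan1. Rdx encodes radixin, an ERM protein that ties filaments to the plasma membrane, and it had 254, 142 and 44 counts in A1 to A3 and 49658 and 65282 in B1 and B2. These are 110, 31.5 and 37.1 CPM against 2271 and 2841 CPM, a log2 fold change of 4.06 ± 0.46 (SE; edgeR adjusted p = 0.00146) that was called in all 15 alternatives. Per kilobase, Rdx had the highest mean of the list over the 5 libraries, which rests on variation B: it averaged 12.6 CPM per kilobase in variation A, where Cfl2 led at 266, and 540 in variation B. The other ERM genes were not called, at −0.87 for Ezr (edgeR adjusted p = 0.053) and −0.07 for Msn (edgeR adjusted p = 0.907), and Fermt3, for an integrin-binding kindlin, was called lower (−1.23, edgeR adjusted p = 0.0326), a call lost without A2, A3, B1 or B2 (edgeR adjusted p = 0.128 to 0.222). On library totals all 3 were positive and none was called. With upper quartile scaling Ezr was called lower, just past the fold threshold (−1.004, edgeR adjusted p = 0.0341). The 10 membrane linkers had a median of −0.37, with 3 called higher and 1 lower. Sptan1 and Sptbn1, for the α and β chains of the spectrin that lines the membrane, were both called higher, at 1.30 (edgeR adjusted p = 0.0228) and 1.23 (edgeR adjusted p = 0.0421). With the trend with gene length removed, neither was called, at 0.83 (edgeR adjusted p = 0.0682) and 0.69 (edgeR adjusted p = 0.137), while Rdx was called at 4.00 (edgeR adjusted p = 0.000782). Like Myh9, Sptan1 and Sptbn1 lost their calls when any library other than A1 was left out (edgeR adjusted p = 0.0979 to 0.214).

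The largest fitted falls among the calls of the wider list were in Capg, Evl and Cfl2. Capg and Evl, 2 of the 20 called lower, had passed the filter on low counts through variation A alone, so a fall was built into their being tested. Capg, for a protein that caps filament ends, had 5, 15 and 3 counts in variation A and none in variation B, and with 3 counts in each variation B library as the floor it was at least 58.1-fold lower with TMM. Evl, of the Ena/VASP family that protects growing ends, had 7, 13 and 6 counts in variation A and 12 and 0 in variation B (log2 fold change −5.15, edgeR adjusted p = 0.0226). Evl overlaps Degs2 on the other strand, and its call was lost without A2, A3 or B2. Its fold change rests on few counts, at −9.01 without B1, where the remaining variation B library has no count and the fitted value is no bound, and −4.15 without B2. Cfl2, the cofilin best known from muscle, had 135, 5276 and 1628 counts in A1 to A3 and 3004 and 2357 in B1 and B2. At 58.7 CPM, A1 lay below both variation B libraries (137 and 103 CPM), while A2 and A3 were at 1172 and 1371 CPM, so the groups overlap despite a log2 fold change of −4.55 (edgeR adjusted p = 0.0357), and the call was lost without A2, A3, B1 or B2 and on library totals (−2.85, edgeR adjusted p = 0.0729). Cfl1 varied far less among the same 3 libraries. Arhgdia, one of the 3 genes highest in level per kilobase, was not called (−0.40, edgeR adjusted p = 0.392) and on library totals was called higher (1.12, edgeR adjusted p = 0.0241), below the protein-coding median of 1.50 there.

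The 3 genes whose profile over the 5 libraries was closest to the mean profile of the members were Psmb3, Atp2a3 and Xpnpep1. The Euclidean distances of their centred log2 CPM (TMM, pseudocount of 0.5 CPM) from that mean were 0.06, 0.08 and 0.12. Among the members themselves the distances ran from 0.48 for Coro1a and 0.57 for Pfn1 to 2.72 for Actg1 and 3.02 for Myh9, so the mean stood for Coro1a and Pfn1 better than for either of the latter.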

How the data were processed

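The deposited tables hold raw read counts for every gene. To make them, the authors used Trimmomatic 0.36 for trimming, STAR 2.7.3a for alignment to GRCm38 and featureCounts 1.6.4 on GENCODE M24 exons, without a strand option and without reads that aligned to several places or to more than 1 gene. Antisense and overlapping genes therefore cannot be separated, and repeated sequence is undercounted.

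GENCODE M21 gave symbols, through the identifiers, to 55144 of the 55385 genes. Counts were fitted over all genes by the quasi-likelihood test of edgeR 4.0.16 (R 4.3.3; TMM scaling, filterByExpr, Benjamini-Hochberg adjustment). The procedure was also run on simulated data. These had the same composition in both variations, apart from genes changed on purpose, and no trend with gene length. That run therefore cannot test the scaling or the length trend. Shares were compared by exact permutation with Python 3.11.15. Members and lists were chosen with earlier results of these data known. Other named genes were the 3 largest called rises and falls and the 3 highest levels in the wider list, and the 3 nearest profiles; 1 gene that this rule names is not reported here. Acta2, Arpc1a, Arpc1b, Arpc3, Coro1b, Coro1c, Sptbn1, Ssh2, Ezr, Msn and Fermt3 were chosen after their values were seen. Myl12b was left out because its symbol belongs to more than 1 gene. Alternatives covered scaling, DESeq2 1.42.0, filters, a replicate block, gene length, omission of each library in turn and a stricter null hypothesis (fold change of 2). No pair of libraries was a duplicate. Shared sequence was searched in transcripts, and the genome sequence was not used here.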

Additional observations from a re-analysis of the deposited data

How the results depend on the processing

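The member calls (1 higher, 7 lower) were the same genes with RLE scaling, upper quartile scaling, DESeq2, no filter, protein-coding genes only and without A1. Higher and lower members numbered 2 and 3 on library totals, 0 and 4 when testing for a fold change over 2, and 0 and 7 with the length trend removed. Over all 10287 genes tested, the same calls numbered 5654 and 302, 289 and 388, and 985 and 1443 in that order. In the main fit they numbered 1135 and 1276. Leaving out 1 library gave 0 to 1 higher and 1 to 7 lower members. Without B1 or without B2, where the lone variation B library is assumed to vary like the others, 1 lower member, Actg1, was called. On library totals the log2 fold changes of Pfn1 (0.036), Coro1a (0.033), Arpc2 (1.06), Arhgdia (1.12), Arpc1a (0.48), Arpc3 (0.23), Coro1b (0.21), Ezr (0.59), Msn (1.29) and Fermt3 (0.30) reversed; Msn also did so without a filter (0.13) and without A1 (−0.27 to 0.45 over the omitted libraries), Arpc2 without A1 (−0.50 to 0.26 over the omitted libraries) and Flna with the length trend removed (−0.064). The causes were not tested. The Tmsb10 share difference ranged from −5.31 to 14.7 percentage points with a library left out. In the wider list (5 higher, 20 lower), higher and lower calls numbered 36 and 4 on library totals and 1 and 7 for a fold change over 2. With a variation A library left out they numbered 2 to 14 and 6 to 19, and they fell without B1 or without B2. Higher calls numbered 3 with upper quartile scaling and 2 with the length trend removed, where 956 and 985 of all 10287 genes were higher. Lower calls numbered 23 and 22 there, against 1482 and 1443 over all genes. Higher calls made up 58.0% of all calls without a filter and 58.1% without A1, against 47.1%. Without A2, Capg did not pass the filter on low counts. The replicate numbers did not pair the libraries: deviations correlated at −0.104 for number 1 and −0.034 for number 2. With the replicate block, 0 members were called higher and 5 lower, and in the wider list 3 and 13. Over all 10287 genes tested, 761 were called higher and 813 lower with the block. With the length trend removed as well, the wider list gave 2 and 12, the members again 0 and 5, and all genes 692 and 864. The Cfl2 log2 fold change went from −4.55 to −2.55 with the block (edgeR adjusted p = 0.0964). Among the members, depth limits Actg1, Tmsb10 and Arpc2 most, with 11 to 18 counts each in A3.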
